A study of Mus musculus with 2 samples.

Results

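Purinergic signalling genes were described in CT26 cells, a mouse colon cancer line, with and without knockdown of Setdb1. The set holds 10 genes out of the 54680 loci in the deposited table: 4 P2X receptors (P2rx3, P2rx4, P2rx5 and P2rx7), 2 P2Y receptors (P2ry2 and P2ry6), the adenosine receptors Adora1 and Adora2b, and the enzymes Entpd1 and Nt5e. All 10 were found by symbol. They were chosen with the low P2rx3 level in shSetdb1 cells already known, to set that receptor beside its relatives, so every ratio below is a description and carries no test.

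The knockdown group (shSetdb1) was CT26 cells infected with lentivirus carrying a short hairpin RNA targeting Setdb1, a gene for a histone methyltransferase that marks silenced chromatin. The control group (shCtrl), given as wild type in the labels, was CT26 cells infected with the empty knockdown vector. Both were grown in RPMI medium with serum and collected at day 6, when the knockdown cells had changed in phenotype. The labels call the knockdown cells differentiated, a state induced by the knockdown, and its part in the values was not tested. Each group had 1 library, and the labels do not say whether the cells were a pool or a clone or how many hairpin sequences were used. The differences therefore have no replicate check and describe these 2 libraries.

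Cells release ATP and other nucleotides through channels, vesicles and damaged membranes. P2X receptors are ATP-gated cation channels built from 3 subunits, while P2Y receptors are G protein-coupled receptors for nucleotides. At the cell surface Entpd1 (CD39) cuts ATP and ADP to AMP, and Nt5e (CD73) cuts AMP to adenosine, which acts on the G protein-coupled Adora receptors. In tumours this chain is known for turning a stimulatory signal, ATP, into an immunosuppressive one, adenosine.

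RefSeq promoter windows (GRCm38.p6, 250 bases before to 50 after a start site) were given for 7 of the 10 genes, with 11 windows in all. P2rx3, P2rx5 and P2ry6 had no entry. The 4 below are shown because they belong to the member with the highest level in shSetdb1 cells, to a member higher there from very few reads, to a receptor at a middle level and to an enzyme without a single read. For P2ry2 and P2rx7, each with more than 1 window, the one shown is that of the outermost start. Capitals mark CpG dinucleotides.
P2ry2, chr7:101012004-101012303, minus strand: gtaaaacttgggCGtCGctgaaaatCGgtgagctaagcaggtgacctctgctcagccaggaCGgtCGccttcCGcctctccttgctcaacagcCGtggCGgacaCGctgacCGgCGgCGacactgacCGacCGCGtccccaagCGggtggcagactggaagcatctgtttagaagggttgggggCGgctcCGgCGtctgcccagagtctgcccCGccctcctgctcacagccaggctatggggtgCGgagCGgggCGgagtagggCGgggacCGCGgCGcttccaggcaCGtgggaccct
Adora2b, chr11:62248734-62249033, plus strand: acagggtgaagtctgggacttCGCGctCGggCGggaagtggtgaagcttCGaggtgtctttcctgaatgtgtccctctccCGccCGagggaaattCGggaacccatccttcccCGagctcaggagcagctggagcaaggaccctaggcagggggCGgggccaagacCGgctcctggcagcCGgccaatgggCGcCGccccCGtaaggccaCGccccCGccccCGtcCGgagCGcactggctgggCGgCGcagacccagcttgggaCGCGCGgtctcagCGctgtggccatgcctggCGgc
P2rx7, chr5:122643677-122643976, plus strand: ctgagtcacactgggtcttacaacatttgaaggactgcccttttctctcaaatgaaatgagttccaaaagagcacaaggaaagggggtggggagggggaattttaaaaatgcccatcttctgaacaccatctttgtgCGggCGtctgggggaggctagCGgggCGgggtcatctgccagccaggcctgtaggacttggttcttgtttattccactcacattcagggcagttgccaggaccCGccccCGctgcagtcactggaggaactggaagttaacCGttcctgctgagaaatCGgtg
Nt5e, chr9:88327359-88327658, plus strand: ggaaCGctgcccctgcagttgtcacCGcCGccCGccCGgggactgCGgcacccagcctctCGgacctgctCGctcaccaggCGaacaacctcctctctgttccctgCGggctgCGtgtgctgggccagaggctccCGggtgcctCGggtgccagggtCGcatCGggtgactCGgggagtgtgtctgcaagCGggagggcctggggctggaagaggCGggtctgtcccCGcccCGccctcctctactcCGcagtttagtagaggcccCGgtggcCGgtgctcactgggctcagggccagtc

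The P2ry2 window held 28 CpG dinucleotides, that of Adora2b 27, that of Nt5e 23 and that of P2rx7 8, against a median of 7 over 32851 windows of the same length. CpG number did not sort these genes by level. The window of Nt5e, which had no reads, held nearly as many as that of P2ry2, and the P2rx7 window, of an expressed gene, held fewest of the 4. The core letters of the hypoxia response element, ACGTG and GCGTG, were searched on both strands. The P2ry2 window had 2 matches to ACGTG and 1 to GCGTG. Its 2 matches to ACGTG are 1 site, the palindrome CACGTG, read on each strand. The windows of Adora2b and Nt5e had 1 match to GCGTG each, and that of P2rx7 had none. Of all windows, 19.6% held ACGTG and 32.4% held GCGTG. The cyclic AMP response letters TGACGTCA, present in 1.79% of all windows, were in none of the 11 member windows. A match is a string of letters, not a shown binding site.

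Levels are given in FPKM, which count fragments per length of gene and per depth, so that genes of different length can be compared. Here 1 common depth served both libraries, so a ratio of FPKM differs slightly from a ratio of reads relative to each library's total. Whole reads were recovered from these values, with totals of 18421604 in shCtrl cells and 19045830 in shSetdb1 cells. Intervals are 95% intervals from read counts, exact Poisson for a level and exact binomial (Clopper-Pearson) for a ratio of reads relative to each library's total. They cover counting error only, because reads amplified without molecular identifiers are not independent molecules. Setdb1 itself was at 10.4 FPKM (1340 reads) in shCtrl cells and 2.47 FPKM (317 reads) in shSetdb1 cells, and 1.09% of its exonic bases are shared with Cers2. Of 11 epithelial markers, 3 keratins (Krt18, Krt19 and Krt20) reached 1 FPKM, all higher in shSetdb1 cells, whose part in the receptor values was not tested, and the epithelial adhesion genes Epcam and Cdh1 had 0 reads in both. None of 12 immune cell markers reached 1 FPKM, with 27 reads in shCtrl cells and 31 in shSetdb1 cells over the whole list and 6 of them, including Cd3e and Itgam, at 0 in both. None of 6 endothelial markers reached 1 FPKM, with 137 and 164 reads in sum, most of them from Vwf, and Pecam1 and Cdh5 at 0.

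P2rx3, the ATP-gated channel best known from pain-sensing neurons, had the highest level of the 10 genes in shCtrl cells. It was at 27.5 FPKM there (1439 reads, interval 26.1 to 29.0) and at 1.34 FPKM in shSetdb1 cells (70 reads, 1.04 to 1.69). The intervals of the 2 libraries do not overlap, and the knockdown level was 4.86% of the control level. The log2 ratio of (FPKM + 1), knockdown over control, was -3.61, and the read ratio was 0.0471 (0.0365 to 0.0598), which is 21.3-fold lower (16.7 to 27.4). Of the 10671 genes that reached 1 FPKM in either library, P2rx3 had the 5th lowest log2 ratio. Its level went from rank 2195 to rank 9427 among all loci. With bulk RNA, fewer cells with the transcript and less transcript per cell cannot be told apart.

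P2rx3 (ENSMUSG00000027071) occupies chromosome 2, minus strand, 84998583 to 85037462 in GRCm38, with 12 exons in its longest coding transcript. Its first bases overlap the start of Ssrp1, a histone chaperone gene on the other strand, over 229 bases. Exons of both genes share 51 of the 2789 exonic bases of P2rx3, or 1.83%, in 2 separate stretches of at most 39 bases. Ssrp1 was at 165 FPKM in shCtrl cells and 128 FPKM in shSetdb1 cells, a read ratio of 0.750 (0.729 to 0.771) and a log2 ratio of -0.37, and whether strand was used in counting is not stated. Tnks1bp1, the next protein-coding gene beyond Ssrp1, had a log2 ratio of 0.24. Prg3, on the other side, had 0 reads in both libraries and could show no difference. Ssrp1 was thus also lower in shSetdb1 cells, by much less than P2rx3, and Tnks1bp1 was not lower. None of the 2829 stretches of 50 bases in P2rx3 transcripts occurred in a transcript of another gene, on either strand. That search could not find shared stretches of at most 39 bases, so it says nothing about reads from Ssrp1. Whether some of the 70 P2rx3 reads in shSetdb1 cells came from Ssrp1 was not tested.

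P2rx4, a widely expressed P2X channel of the plasma membrane and lysosomes, was at 6.34 FPKM (834 reads) in shCtrl cells and 9.32 FPKM (1226 reads) in shSetdb1 cells. It was higher in shSetdb1 cells, with a read ratio of 1.42 (1.30 to 1.55) and a log2 ratio of 0.49, short of 2-fold. P2rx7, which responds to high ATP and is known for activating the inflammasome in myeloid cells, was at 2.41 FPKM (270 reads) and 4.19 FPKM (468 reads). Its read ratio was 1.68 (1.44 to 1.95) and its log2 ratio 0.60, also short of 2-fold. P2rx5 had 2 reads in shCtrl cells and 3 in shSetdb1 cells, a read ratio of 1.45 (0.166 to 17.4), and a difference was not detectable at this depth.

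P2rx7 (chromosome 5, 122643911 to 122691432) and P2rx4 (chromosome 5, 122707544 to 122729738) are neighbours on the plus strand, 16111 bases apart. Both were higher in shSetdb1 cells. Camkk2, a calcium/calmodulin-dependent kinase kinase gene that starts beyond P2rx4 on the other strand, was lower there, with 317 reads against 156 and a log2 ratio of -0.53. Of the 7131 stretches of 50 bases in P2rx4 transcripts, 1.63% also occur in transcripts of other genes.

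Within the P2X family, the gene with the highest level was therefore not the same in the 2 libraries. P2rx3 held 74.2% of the summed FPKM of the 7 P2X genes in shCtrl cells and 8.52% in shSetdb1 cells. P2rx4 went from 17.1% to 59.3% and P2rx7 from 6.50% to 26.6%. The sum over all P2X genes was 37.1 FPKM and 15.7 FPKM, while the sum without P2rx3 was 9.57 FPKM and 14.4 FPKM. P2rx1, the channel known from platelets and smooth muscle, had 31 and 40 reads, P2rx2 had 7 and 0, and P2rx6 had none. With 3 reads as the floor for a count of 0, P2rx2 was at least 2.41-fold lower in shSetdb1 cells, a fold that takes the 7 reads as exact. The counting interval of the read ratio, which does not, reached up to 0.671, or 1.49-fold lower.

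**Figure D1:**
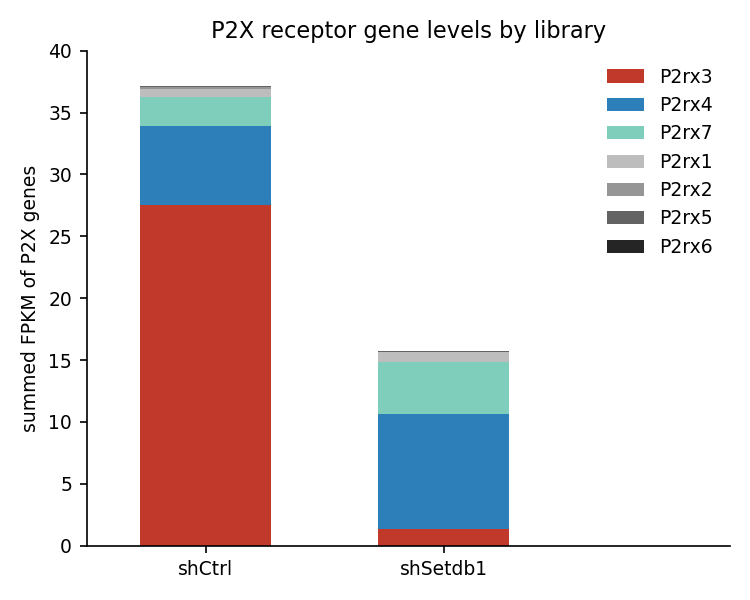
Summed FPKM of the 7 P2X receptor genes in each library (1 library per bar, no error bars), stacked by gene from P2rx3 at the bottom. P2rx3 takes up 27.5 of 37.1 FPKM in the shCtrl bar and 1.34 of 15.7 FPKM in the shSetdb1 bar, where P2rx4 is the largest part.

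P2ry2, a Gq-coupled receptor for ATP and UTP found on many epithelia, was at 6.16 FPKM (453 reads, interval 5.60 to 6.75) in shCtrl cells and 13.4 FPKM (982 reads, 12.5 to 14.2) in shSetdb1 cells. It had the highest level of the 10 genes in shSetdb1 cells. Its read ratio was 2.10 (1.87 to 2.35) and its log2 ratio 1.003, just past 2-fold. That position depends on the scaling and on the added 1. The log2 ratio was 0.96 with each library scaled by its own read total, and 1.10 with a pseudocount of 0.1 in place of 1. P2ry6, the receptor for UDP, lies at chromosome 7, 100937630 to 100974649, 21918 bases from P2ry2 (100996568 to 101012866) on the same strand. It had 17 reads in shCtrl cells and 14 in shSetdb1 cells, 0.314 and 0.259 FPKM, and its read ratio was 0.797 (0.364 to 1.72), so a difference was not detectable. Of these neighbouring receptors, P2ry2 had the higher level in both libraries.

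Adora2b, the low-affinity Gs-coupled adenosine receptor, had 4 reads (0.116 FPKM, 0.0315 to 0.296) in shCtrl cells and 29 reads (0.839 FPKM, 0.562 to 1.21) in shSetdb1 cells. The 2 intervals do not overlap. The read ratio was 7.01 with a wide interval, 2.46 to 27.5, and the log2 ratio of (FPKM + 1) was 0.72, which is compressed for genes with so few reads. Adora2b stayed under 1 FPKM in both libraries. It lies on chromosome 11 from 62248984 to 62266453, and its neighbour Zswim7, which starts on the other strand, had 112 and 117 reads. The other adenosine receptors were at or near 0. Adora1, Gi-coupled, had no reads in either library, and 20.1% of its exonic bases are shared with Mybph, which had none either. Adora2a had 1 read in each library and Adora3 none.

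Both member enzymes of the chain from ATP to adenosine outside the cell, Entpd1 and Nt5e, were at or under the limit of detection. Nt5e had 0 reads in both libraries, and a floor of 3 reads corresponds to 0.0186 FPKM. Entpd1 had 1 read in shCtrl cells and 0 in shSetdb1 cells, with a floor of 0.0287 FPKM. A set of 10 genes that all cells use was above 2 FPKM in both libraries. These were chosen after the values were seen, so nothing about Entpd1 or Nt5e is read from them. No difference in Entpd1 or Nt5e could be detected at this depth. The other cell-surface enzymes of the list were also low. Of 10 ectonucleotidases, none reached 1 FPKM and 5 had no read in either library. Their summed reads were 15 in shCtrl cells and 27 in shSetdb1 cells, of which Alpl, the tissue-nonspecific alkaline phosphatase, gave 0 and 19. With the same floor, Alpl was at least 6.13-fold higher in shSetdb1 cells, a fold that takes the 19 reads as exact. The counting interval of its read ratio started lower, at 4.51.

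**Figure D2:**
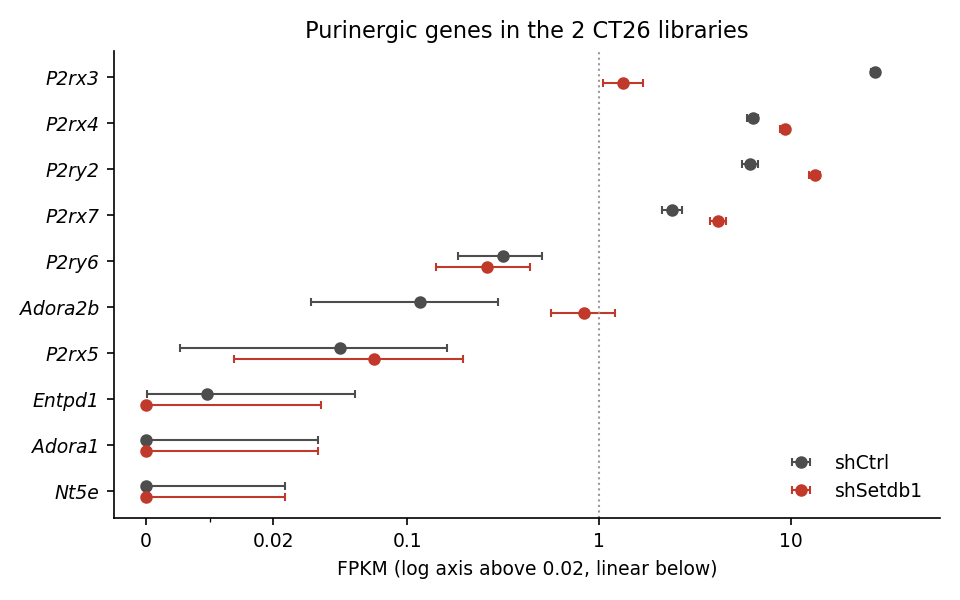
FPKM of the 10 genes in the shCtrl library (grey) and the shSetdb1 library (red), with bars for the 95% exact Poisson interval of the reads and a dotted line at 1 FPKM. P2rx3 alone is far lower in shSetdb1, P2rx4, P2ry2, P2rx7 and, at under 1 FPKM, Adora2b lie higher there with bars that do not overlap, and Nt5e and Adora1 sit at 0 in both.

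In order of level, shCtrl cells had P2rx3 first, followed by P2rx4, P2ry2 and P2rx7. P2rx4 (5.92 to 6.78) and P2ry2 (5.60 to 6.75) did not differ beyond their counting intervals. In shSetdb1 cells the order was P2ry2, P2rx4, P2rx7 and P2rx3, each outside the interval of the next. P2rx3 (1.04 to 1.69) overlapped Adora2b (0.562 to 1.21), which came next. Below these, P2ry6 and Adora2b overlapped in shCtrl cells (0.183 to 0.503 and 0.0315 to 0.296), and P2rx5, Entpd1, Adora1 and Nt5e had at most 3 reads each.

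Of the 10 genes, 4 reached 1 FPKM in either library. Of these, P2rx3 was lower in shSetdb1 cells by 2-fold or more and P2ry2 was higher by 2-fold or more, 1 gene in each direction. Over all 10671 genes at that level, 4.85% were at least 2-fold lower and 6.81% at least 2-fold higher, 11.7% together. Since the members were chosen on this contrast, nothing is read from their count.

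The 4 protein-coding genes nearest to P2rx3 in level, by Euclidean distance of log2(FPKM + 1) over the 2 libraries, were Avil, Cox6a2, Ak5 and Atp2a3. Avil, the actin-binding protein advillin, had 2706 reads in shCtrl cells and 70 in shSetdb1 cells, at a distance of 0.63. Cox6a2, the muscle isoform of a cytochrome c oxidase subunit, had 245 and 9 reads at a distance of 0.67. Ak5, an adenylate kinase that interconverts adenine nucleotides, was at 15.2 FPKM (969 reads) and 2.16 FPKM (138 reads), a log2 ratio of -2.36 and a distance of 0.93. Atp2a3, a calcium pump of the endoplasmic reticulum, had 2038 and 24 reads at a distance of 0.998. Avil shares 4.86% of its exonic bases with Tsfm, which had 951 and 931 reads. With 2 libraries, likeness means only a similar pair of levels.

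**Figure D3:**
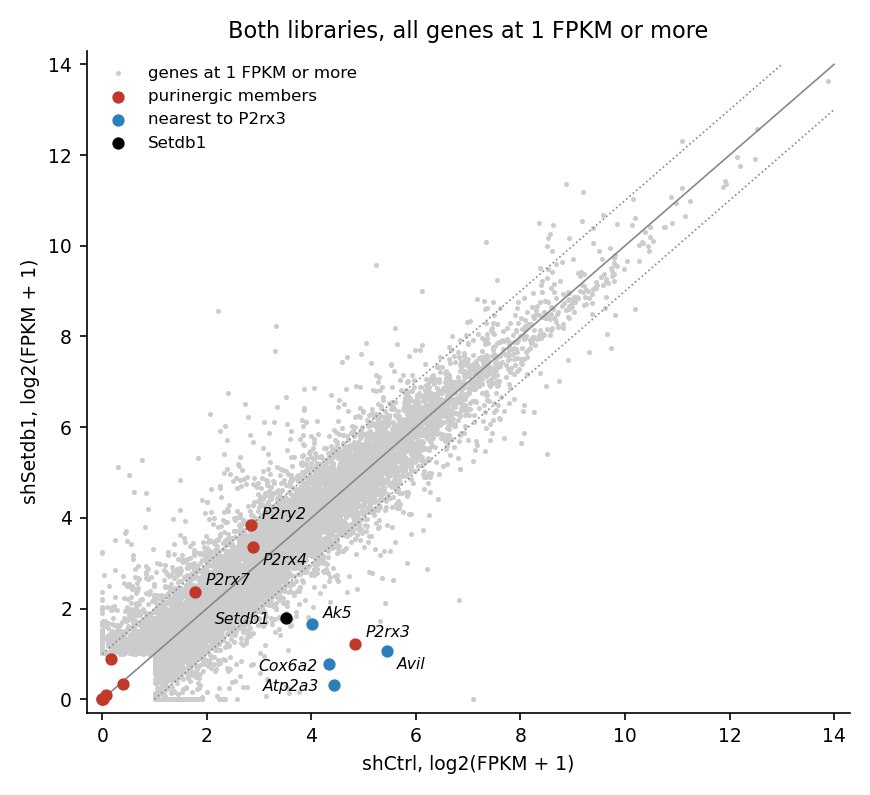
log2(FPKM + 1) in the shCtrl library (x axis) against the shSetdb1 library (y axis) for the 10671 genes reaching 1 FPKM in either library (grey), with the 10 members in red, the 4 genes nearest to P2rx3 in blue and Setdb1 in black. The solid line marks equal levels and the dotted lines 2-fold. P2rx3 lies among Avil, Cox6a2, Ak5 and Atp2a3 far below the lower dotted line, and P2ry2 lies on the upper one.

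P2rx3 and Avil are both known from sensory neurons, so a list of 20 sensory neuron markers was examined, of which 19 were found by symbol. Avil and Runx1 reached 1 FPKM. Runx1, a transcription factor also used in blood cells and epithelia, had 882 and 904 reads and a log2 ratio of 0.03, below 0 under scaling by the libraries' own read totals (read ratio 0.991). The other 17 had 29 reads in shCtrl cells and 45 in shSetdb1 cells in sum. Of the 19, 13 had no read in either library, among them the sodium channels Scn9a, Scn10a and Scn11a, and the transcription factors Isl1 and Pou4f1. Prph, the neurofilament protein peripherin, had 0 reads in shCtrl cells and 21 in shSetdb1 cells, which is at least 6.77-fold higher against that floor, while the counting interval of its read ratio started at 5.04. P2rx3 in shCtrl cells was thus present without most genes that mark sensory neurons.

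The rest of the purinergic pathway was taken from 8 lists, with 81 genes beside the 10 members, all found by symbol. Of these, 31 reached 1 FPKM. By the log2 ratio of (FPKM + 1), 2 were higher by 2-fold or more, 1 was lower by as much and 28 lay within 2-fold. Adding 1 compresses ratios at low levels, and some of the 28, among them Entpd7, Slc17a9 and Lrrc8d, had read ratios past 2-fold. The median log2 ratio of the 31 was -0.02, against -0.00039 over all 10671 genes. The share past 2-fold, 3 of 31, is close to the 11.7% of all genes.

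Among genes of ATP release, 6 of 14 reached 1 FPKM and all 6 were lower in shSetdb1 cells, with a median log2 ratio of -0.61. By that ratio, 1 of them was lower by 2-fold or more. Over all genes at that level, 5336 of 10671 were lower to any degree and 4.85% by 2-fold or more. Of the 6, Lrrc8a (read ratio interval 0.757 to 1.08) and Lrrc8c (0.853 to 1.06) were not lower beyond counting error. Gja1, the gap junction and hemichannel protein connexin 43, was at 5.19 FPKM (997 reads) in shCtrl cells and 2.01 FPKM (386 reads) in shSetdb1 cells, a log2 ratio of -1.04. Slc17a9, the vesicular nucleotide transporter, had 152 and 61 reads, a read ratio of 0.388 (0.284 to 0.526) and a log2 ratio of -0.81. Lrrc8d, a subunit of the volume-regulated anion channel, had 843 and 421 reads (-0.72), whereas Lrrc8c had the highest log2 ratio of the 6 at -0.02. Calhm5, under 1 FPKM with 31 and 42 reads, had a log2 ratio of 0.12. Panx1, an ATP-release channel of many tissues, had no reads in either library.

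Of the G proteins and second-messenger enzymes that act below P2Y and adenosine receptors, 8 of 19 reached 1 FPKM, and their median log2 ratio was 0.38. Gna11, a Gq-class alpha subunit, was at 15.8 FPKM (1209 reads) in shCtrl cells and 42.1 FPKM (3233 reads) in shSetdb1 cells, a log2 ratio of 1.36. Adcy7, an adenylyl cyclase, was at 4.21 FPKM (531 reads) and 10.1 FPKM (1277 reads), a log2 ratio of 1.09. Both were at least 2-fold higher, 2 of 8 genes, against 6.81% of all 10671 genes at 1 FPKM or more. Plcb3, a phospholipase C activated by Gq proteins, had a log2 ratio of 0.74, and Gnai2, the most abundant alpha subunit of the list, went from 152 to 251 FPKM (0.72). Gnaq, also a Gq-class alpha subunit, had 469 and 482 reads and a log2 ratio of 0.03. Gnai3 had the lowest log2 ratio of the 8, -0.47, while Plcb4, under 1 FPKM in both libraries, was at -0.79. Plcb1 (169 and 89 reads) and Adcy9 (38 and 12 reads), also under 1 FPKM, were lower too. Of the 8, 5 were higher and 3 lower to any degree.

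Of 16 genes that take up or break down adenosine and AMP, 9 reached 1 FPKM. All 9 stayed within 2-fold, and the median log2 ratio was 0.15. Ratios of the 9 ran from -0.43 for Slc29a1, the equilibrative nucleoside transporter ENT1, at 32.6 and 23.9 FPKM, to 0.59 for the AMP deaminase gene Ampd3, at 1.52 and 2.80 FPKM. Of 12 intracellular nucleoside phosphatases, 8 reached 1 FPKM. None of these passed 2-fold in the log2 ratio of (FPKM + 1), whose median was 0.10. Entpd7, with 167 and 407 reads, had the highest log2 ratio of the 8 (0.78), with 4.95% of its exonic bases shared with Cox15. Its read ratio was 2.36 (1.96 to 2.84), past 2-fold, since adding 1 compresses ratios at low levels. The cytosolic nucleotidase Nt5c2, with 1074 and 809 reads, had the lowest log2 ratio (-0.37).

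**Figure D4:**
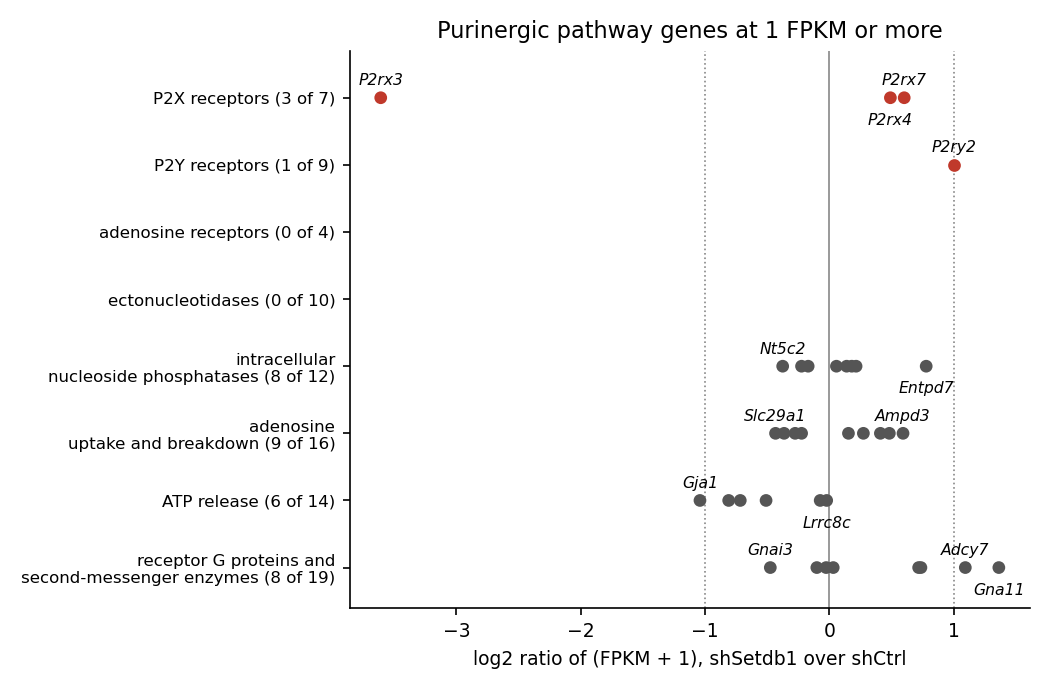
log2 ratio of (FPKM + 1), shSetdb1 over shCtrl, for each purinergic pathway gene reaching 1 FPKM in either library, by list, with the number of such genes out of the list in brackets, members in red and dotted lines at 2-fold. P2rx3 stands alone at -3.61, the 6 ATP-release genes run from -1.04 to -0.02, and no adenosine receptor or ectonucleotidase reached 1 FPKM.

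Across all member loci, 64 other genes lie within 100 kb of a member, of which 23 reached 1 FPKM. Of these, 1 was higher and 1 lower by 2-fold or more in (FPKM + 1), against 6.81% and 4.85% of all 10671 genes at that level. The median log2 ratio of the 23 was 0. The higher one was Relt, a TNF receptor superfamily member near P2ry6, with 136 and 578 reads. The lower one was Aldh18a1, an enzyme of proline synthesis near Entpd1, at 143 FPKM in shCtrl cells and 47.6 FPKM in shSetdb1 cells. Both were named after their values were seen.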

How the data were processed

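RNA sequencing was done on 1 library per group. The submitters' processing notes list CASAVA, HISAT2, featureCounts 1.5.0-p3 and the GRCm38 build, with no role or order, and counting options are not given in the sources used here. The authors deposited FPKM values for both libraries, per the file name. FPKM times gene length gave whole multiples of 1 step for 100% of values above 0 (tolerance 0.01 reads), so reads were recovered. The authors used 1 common depth of 18731117 for both libraries, and their read totals differ 1.03-fold.

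The log2 ratio used FPKM + 1. Genes entered counts if they reached 1 FPKM in either library, and were called at 2-fold on that ratio. The single library per group allows no p-value. Members and lists were chosen with earlier results of these data known. Genes named are the members, Setdb1, list genes past 2-fold, the highest and lowest of each list, neighbours, markers and the 4 genes nearest to P2rx3. Others were chosen after their values were seen. Where a symbol had several loci, the one with most reads was used.

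Positions of all 10 members matched GENCODE M21 on GRCm38. Alternatives covered pseudocount, scaling, filter, threshold and gene type. The tools were scipy 1.17.1, matplotlib 3.10.9, numpy 2.4.6 and pandas 2.3.3 under Python 3.11.15, and the calculations were tested on simulated data.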

Additional observations from a re-analysis of the deposited data

How the results depend on the processing

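The P2rx3 log2 ratio ran from -3.64 to -3.61 under the 4 scalings and was -4.26 with a pseudocount of 0.1, which weighs less against the low knockdown level. The count of members at least 2-fold higher was 0 when libraries were scaled by own read totals, by the sum without the 100 highest genes or by the upper quartile, because P2ry2 lies at the threshold. It was 2 at 1.5-fold and 0 at 4-fold. The count of members at least 2-fold lower was 1 under all settings run. Pathway genes outside the members numbered 2 lower with the pseudocount of 0.1, 6 higher and 3 lower at 1.5-fold, and 0 and 0 at 4-fold. Over all genes, 1134 were higher and 870 lower with the pseudocount of 0.1, 1804 and 1523 at 1.5-fold, and 116 and 56 at 4-fold. Main counts were 727 and 518.

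Of 45 alternative values of the other 9 members, 41 were classed as the same and 4 as moved, all with the pseudocount of 0.1, and none changed sign. The moved values were those of P2rx5, P2rx7, Entpd1 and Adora2b, of which P2rx5 and Entpd1 had at most 3 reads per library. Adora2b moved most, to 2.12. The classes do not order the genes by size of shift. With that pseudocount P2ry6, classed as the same, went from -0.06 to -0.21, and Entpd1, classed as moved, from -0.01 to -0.13. No paired analysis was possible because only 1 library represents each group, and none could be left out. Depth limits 6 of the 10 members, which had 24 reads in shCtrl cells and 46 in shSetdb1 cells in sum.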

Other observations

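Several pathway genes under 1 FPKM in both libraries also had unequal reads. Plcb4, a phospholipase C of the same family as Plcb3, had 161 reads in shCtrl cells and 22 in shSetdb1 cells, a read ratio of 0.132 (95% exact binomial interval 0.0806 to 0.207). P2ry14, the receptor for UDP-glucose, had 39 and 6 reads, a ratio of 0.149 (0.0515 to 0.354). Both were named after their values were seen.

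P2rx1 (chromosome 11, 72999103 to 73015200) lies beside Atp2a3 (72961169 to 72993044), one of the 4 genes nearest to P2rx3 in level. Atp2a3 had 2038 reads in shCtrl cells and 24 in shSetdb1 cells, and P2rx1 had 31 and 40, a read ratio of 1.25 (0.761 to 2.06). P2rx5, on the same chromosome, had at most 3 reads.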
